A study of Mus musculus with 42 samples.

Results

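The genes described here are 10 genes of the urea cycle and of glutamine metabolism, Cps1, Otc, Ass1, Asl, Arg1, Arg2, Nags, Slc25a15, Glul and Gls2, taken by symbol from the 43629 genes of a count table of mouse liver and kidney. They were chosen for their role and not for their values. The mice were males of the UM-HET3 stock, a genetically mixed cross, that ate a control diet or the same diet with a compound from 3 months of age for 1 month, with tissue taken at 4 months. Liver was analysed after AS-703026 at 30 ppm, which blocks the kinase MEK, enzastaurin, an inhibitor of protein kinase C beta, at 75 ppm and GDC-0941, an inhibitor of PI3 kinase, at 50 ppm, with 4 libraries each. Kidney was analysed after these 3 compounds at the same doses, after AZD8055 at 20 ppm and KU0063794 at 10 ppm, which both inhibit the kinase mTOR, and after ascorbyl-palmitate at 6.3 ppm, a vitamin C ester that dissolves in fat, with 4 libraries each and 6 from littermates on the control diet. Liver controls were not analysed here, so a liver difference is between compounds and says nothing of either against the control diet. The submitters call the libraries biological replicates. The RNA was counted by CEL-seq, which reads the 3′ ends of polyadenylated transcripts.

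In the liver, ammonia is bound into urea by a cycle that is shared between the mitochondria and the cytosol of hepatocytes around the portal vein. Nags makes the activator of Cps1, Cps1 makes carbamoyl phosphate from ammonia, Otc joins it to ornithine to give citrulline, and Slc25a15 carries ornithine in and citrulline out of the mitochondrion. In the cytosol Ass1 and Asl turn citrulline into arginine and Arg1 splits arginine into urea and ornithine. Arg2 is the mitochondrial arginase of other tissues. Gls2, the liver-type glutaminase, frees ammonia from glutamine near the portal vein, and Glul, glutamine synthetase, takes up the ammonia that is left in the hepatocytes around the central vein. The kidney has no full cycle: its proximal tubule takes up citrulline and uses Ass1 and Asl to make arginine, and Arg2 lies in the straight part of that tubule.

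Otc was the only member that passed the test between liver groups, so the 250 bases before its annotated start are shown. The gene is ENSMUSG00000031173 on chromosome X of GRCm38, 10252305 to 10321024 on the plus strand, and the sequence is from RefSeq's GRCm38.p6 (chrX:10252055-10252304, plus strand). The capitals mark AAAGTTCA, a variant of the site of HNF4, a nuclear receptor of hepatocytes, which began 68 bases before the start.

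Otc: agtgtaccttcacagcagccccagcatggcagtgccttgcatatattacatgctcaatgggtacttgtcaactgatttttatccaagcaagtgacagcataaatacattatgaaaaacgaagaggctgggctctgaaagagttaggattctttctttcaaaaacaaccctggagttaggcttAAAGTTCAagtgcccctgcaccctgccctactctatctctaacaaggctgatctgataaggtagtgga

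The variant was searched after this sequence had been read, and it is in 1.02% of the 32851 promoters of that length, on either strand. The HNF4 site CAAAGTCCA (0.384% of promoters) and the C/EBP site TTGCNNAA (9.56%), both searched on either strand, had 0 matches in this window. Promoters were matched for 5 of the members. None of these 3 motifs matched those of Ass1, Nags, Slc25a15 and Glul, and such a match or its lack is a description of letters only. The HNF4 site and its variant share the letters AAAGT.

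Levels are in CPM, the count of a gene relative to its library's total after TMM scaling. Total counts per library ran from 1084591 to 4361115 in liver (median 2792768) and from 863605 to 5691067 in kidney (median 2248550). Each labelled tissue held its markers: the liver marker Alb, serum albumin, lay at 8123 CPM or more in liver, and Slc34a1, which takes up phosphate in the proximal tubule, lay at 2097 CPM or more in kidney and at 0.728 CPM or less in liver. Gene models that resemble satellite repeats took between 0.857% and 1.77% of the counts in the AS-703026 liver libraries, at most 0.645% in the other liver libraries and 0.035% to 29.0% in kidney. The liver transcripts Alb, Apoa2, Ahsg and Apoa1 stood out in 2 kidney libraries, enzastaurin replicate 1 and AZD8055 replicate 4, the second of which also held transcripts of fat. The sum of 12 hepatocyte genes set only the first apart, at 2590 CPM. By that sum AZD8055 replicate 4, at 1029 CPM, lay below other kidney libraries, the highest of which was GDC-0941 replicate 3 at 1601 CPM. In liver, enzastaurin replicate 2 had a sum of 9 adipocyte genes of 545 CPM, against 12.5 to 25.8 CPM in the other 11 libraries. Results that rest on 1 of these libraries are given with and without it where such a fit was run.

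In liver, Otc was lower after AS-703026 than after either other compound, and the other 8 members that could be tested did not pass the test. Of the 9490 genes tested in liver 3.2% passed an adjusted p of 0.05 for any difference between the 3 groups, and of the members Otc did (edgeR's quasi-likelihood F test, adjusted p = 0.0217). Otc was at 1163, 1598, 1239 and 1464 CPM in the AS-703026 libraries, at 2278, 1883, 1832 and 1859 CPM after enzastaurin and at 2060, 2083, 2189 and 2137 CPM after GDC-0941. The 4 AS-703026 libraries lay below all 8 others, while enzastaurin and GDC-0941 overlapped. The group means were 1366 ± 201, 1963 ± 211 and 2117 ± 57.5 CPM (SD, n = 4 each).

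Against enzastaurin, Otc fell by 0.52 ± 0.13 (SE) on the log2 scale after AS-703026 (edgeR, adjusted p = 0.0352), in a comparison in which 2.96% of all genes passed. Against GDC-0941 it fell by 0.63 ± 0.13 (edgeR, adjusted p = 0.0127), in one in which 3.22% passed. These comparisons share the AS-703026 libraries. Of the genes that passed against GDC-0941, 63.4% were higher after AS-703026 under TMM scaling and 52% under scaling by library totals, tried after the data were seen, and Otc passed under both. Between enzastaurin and GDC-0941 0% of genes passed by edgeR (762 at an unadjusted p under 0.05, 19 adjusted by DESeq2 and 0 by voom), and Otc differed by -0.11 ± 0.12 (edgeR, adjusted p = 0.864). Leaving out a library kept the call against GDC-0941 in 12 of 12 fits, with adjusted p from 0.00417 to 0.0495 (edgeR). The call against enzastaurin was lost in 7 of 12, with an edgeR adjusted p of 0.0908 without AS-703026 replicate 1, 0.117 without replicate 3, 0.0555 without replicate 4, 0.0878 without enzastaurin replicate 1, 0.0653 without replicate 2, 0.068 without replicate 4 and 0.0507 without GDC-0941 replicate 4. The log2 change in these 12 fits stayed between -0.609 and -0.449. With the log2 share of satellite-like counts as a covariate, Otc differed by -0.35 (edgeR, adjusted p = 0.769) and -0.51 (edgeR, adjusted p = 0.324). That share does not overlap between the AS-703026 libraries and the rest, so the compound and the share can hardly be told apart, and 1 and 22 genes in all passed in these fits.

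**Figure D1:**
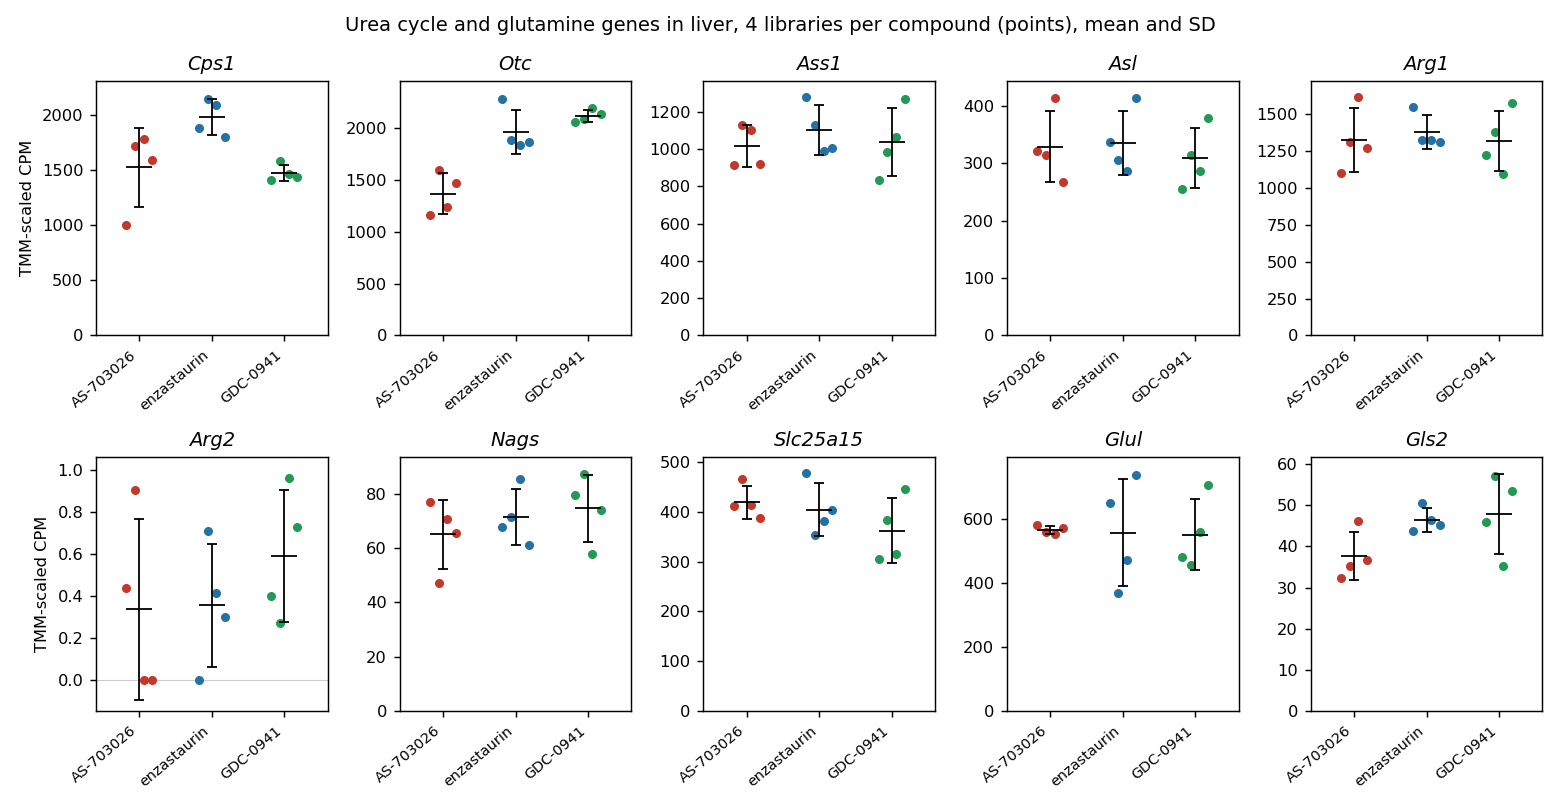
TMM-scaled CPM (y axis, from a separate scale in each panel) of the 10 members in liver by compound, with 1 point per library and the mean and SD (n = 4). Otc is the panel in which the 4 AS-703026 points, at most 1598 CPM, lie below all others, while in the panels of Ass1, Asl, Arg1, Nags, Slc25a15 and Glul the 3 groups overlap.

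The markers of other cells moved in the same contrasts. Summed CPM of 5 erythroid genes was 5061 to 8654 after AS-703026, 1359 to 3554 after enzastaurin and 2057 to 4687 after GDC-0941, and of the 4 tested, 4 were higher after AS-703026 than after enzastaurin and 1 than after GDC-0941. Of 10 tested immune genes, 2 were higher against enzastaurin and 4 against GDC-0941, with summed CPM of 380 to 491 after AS-703026, 278 to 475 after enzastaurin and 205 to 325 after GDC-0941. The sum of 11 genes of bile duct and stellate cells was 501 to 678 CPM, 457 to 493 CPM and 376 to 454 CPM in the same order, with no overlap, and of its 7 tested genes 1 passed, as higher against GDC-0941. The 12 hepatocyte genes overlapped in their sums, at 116599 to 153351, 119084 to 140851 and 108574 to 127656 CPM. Of these 12, Hpx, Fga and Fgg, whose products also rise in the acute phase, passed as higher after AS-703026 in each contrast. The list as a whole did not rise with them. Its median log2 change was -0.232 against enzastaurin and -0.00433 against GDC-0941, beside -0.00633 and -0.00027 for all genes. Alb itself, which did not pass, was at 8123 to 21159 CPM after AS-703026, 19047 to 26463 CPM after enzastaurin and 20131 to 27804 CPM after GDC-0941. None of the genes of these 4 lists was at 0 in liver. Their part in the Otc difference was not tested, and in whole tissue fewer cells of a type and less RNA per cell cannot be told apart.

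Among the other mitochondrial members, Cps1 (ENSMUSG00000025991, chromosome 1, 67123026 to 67231259, plus strand) was at 997, 1715, 1781 and 1594 CPM after AS-703026, at 1879, 2138, 2087 and 1799 CPM after enzastaurin and at 1412, 1581, 1460 and 1436 CPM after GDC-0941. The enzastaurin libraries lay above all others, the lowest of them close to AS-703026 replicate 3, while the AS-703026 and GDC-0941 groups overlapped and AS-703026 replicate 1 was the lowest of the 12. The difference of enzastaurin from GDC-0941 was 0.42 ± 0.16 on the log2 scale (edgeR, unadjusted p = 0.0164, adjusted p = 0.528) and that of AS-703026 from enzastaurin -0.38 ± 0.16 (edgeR, unadjusted p = 0.0298, adjusted p = 0.25). Neither passed. Nags (ENSMUSG00000048217, chromosome 11, 102145513 to 102149477, plus strand), which makes the activator of Cps1, ranged from 47.1 to 87.2 CPM over the 12 libraries, and Slc25a15 (ENSMUSG00000031482, chromosome 8, 22375551 to 22398597, minus strand), the ornithine carrier, from 305 to 477 CPM. Their changes between compounds ran from -0.18 for Nags to 0.21 for Slc25a15, both in AS-703026 against GDC-0941, and none passed the edgeR test. Nags shares exon bases with Gm11586 on the other strand, which had 0 counts.

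The cytosolic enzymes had group means in liver that differed by less than the spread of their libraries. Ass1 (ENSMUSG00000076441, chromosome 2, 31470207 to 31520672, plus strand), which joins citrulline to aspartate, had means of 1018 ± 115, 1101 ± 134 and 1037 ± 182 CPM (SD, n = 4) after AS-703026, enzastaurin and GDC-0941. Asl (ENSMUSG00000025533, chromosome 5, 130011258 to 130029247, minus strand), which releases arginine from the product of Ass1, had 329 ± 61.6, 336 ± 55.9 and 309 ± 52.7 CPM. Arg1 (ENSMUSG00000019987, chromosome 10, 24915221 to 24927484, minus strand), the arginase of hepatocytes, had 1327 ± 215, 1378 ± 115 and 1318 ± 206 CPM. Their log2 differences lay between -0.113 (SE 0.14, Ass1, AS-703026 against enzastaurin) and 0.12 (SE 0.16, Asl, enzastaurin against GDC-0941), and edgeR's adjusted p was 0.77 or higher. Ass1 shares 38.6% of the 24-base words of its last 500 bases with the copy Gm5424, which had 2333 counts over all libraries beside 104078 for Ass1, so some reads of Ass1 may have been placed there. Arg2 had 14 counts in the 12 liver libraries together and was not tested.

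Of the glutamine genes, Gls2 (ENSMUSG00000044005, chromosome 10, 128194457 to 128210004, plus strand) lay at 32.4, 35.3, 46.1 and 36.8 CPM after AS-703026, at 43.8, 50.6, 46.3 and 45.1 CPM after enzastaurin and at 45.9, 57, 35.2 and 53.5 CPM after GDC-0941. Replicate 3 of AS-703026 and of GDC-0941 broke the order of these groups. Gls2 differed by -0.33 ± 0.15 on the log2 scale between AS-703026 and GDC-0941 (edgeR, unadjusted p = 0.0468, adjusted p = 0.301) and did not pass. It shares exon bases with Spryd4 on the other strand, which had 1353 counts beside 1527 for Gls2, and the strand setting of the counting is not given in the sources used here. Glul (ENSMUSG00000026473, chromosome 1, 153899944 to 153909723, plus strand), the pericentral member, had means of 567 ± 13.1, 557 ± 167 and 552 ± 112 CPM (SD, n = 4), and its 3 log2 differences were at most 0.040 with an SE of 0.19. It shares 17.6% of the words of its last 500 bases with the copy Glns-ps1, which had 33 counts, and exon bases with Teddm2 on the other strand, which had 117. Over the 9 members, 2 were above 0 and 7 below for AS-703026 against enzastaurin, with a median of -0.113 beside -0.00633 for all genes. For AS-703026 against GDC-0941 it was 5 and 4 (median 0.00914, all genes -0.00027), and for enzastaurin against GDC-0941 6 and 3 (median 0.0639, all genes -0.000218).

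The genes around the cycle held some that passed in liver, and for several lists the number depended on the tool. Of 13 tested genes of nitrogen entry and carriers, among them Glud1, Got1 and Slc25a13, 0 passed in the 3 comparisons by edgeR. At an unadjusted p under 0.05 it was 4 for AS-703026 against enzastaurin, 8 for AS-703026 against GDC-0941 and 1 for the third, with 1, 3 and 0 adjusted by DESeq2 and 0, 2 and 0 by voom. Of all 9490 genes, 1538, 1527 and 762 were at an unadjusted p under 0.05 by edgeR in these comparisons. Of 9 users of glutamine 0 passed by any of these tools, with 1, 2 and 0 at an unadjusted p under 0.05. Of 7 amino acid and ammonia transporters, Slc38a2, which takes up small neutral amino acids, rose by 0.84 ± 0.17 on the log2 scale after AS-703026 against enzastaurin (edgeR, adjusted p = 0.0168). Of 13 genes of arginine and ornithine use, Gatm, the first enzyme of creatine synthesis, fell by 0.69 ± 0.17 in the same contrast (edgeR, adjusted p = 0.0383), and Azin1, the antizyme inhibitor, fell by 0.52 ± 0.13 against GDC-0941 (edgeR, adjusted p = 0.04). Of 16 genes of amino acid breakdown, Mat1a, which makes S-adenosylmethionine, rose by 0.78 ± 0.12 against enzastaurin, and Tdo2, the first enzyme of tryptophan breakdown, fell by 0.62 ± 0.14 (edgeR, adjusted p = 0.00357 and 0.0263). Against GDC-0941, Tdo2 fell by 0.66 ± 0.14 and Ftcd, of histidine breakdown, by 0.46 ± 0.11 (edgeR, adjusted p = 0.0166 and 0.0385). Of these 16 genes, 8 against enzastaurin and 6 against GDC-0941 were at an unadjusted p under 0.05 by edgeR. Adjusted by DESeq2 5 and 4 of them passed, and by voom 2 and 2. For the 13 genes of arginine and ornithine use it was 5 and 6 unadjusted, 1 and 3 by DESeq2 and 1 and 1 by voom. Of 14 regulators, Creb3l3, a transcription factor of the fasted liver, fell by 0.52 ± 0.12 against GDC-0941 (edgeR, adjusted p = 0.0254), and Hnf4a and Cebpa were among the 13 that did not pass. Against enzastaurin 0 regulators passed by edgeR, 1 by DESeq2 and 1 by voom. With each of the 12 libraries left out in turn, Mat1a passed in 12 fits. The call of Slc38a2 was lost in 3 (without AS-703026 replicate 3 and enzastaurin replicates 2 and 4), that of Tdo2 in 4 against enzastaurin (AS-703026 replicates 1 and 3, enzastaurin replicates 1 and 4) and in 3 against GDC-0941 (AS-703026 replicates 1 and 3, GDC-0941 replicate 4), and that of Creb3l3 in 4 (AS-703026 replicates 1 and 3, GDC-0941 replicates 3 and 4). Gatm was lost in 8, Azin1 in 7 and Ftcd in 7 of the 12, with edgeR's adjusted p at most 0.137, 0.121 and 0.129.

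Tdo2 was also the gene whose levels went most closely with those of Otc over the 12 liver libraries, with a Pearson correlation of log2(CPM + 1) of 0.96, followed by Gm4952 at 0.955, among 4575 genes with a mean of at least 20 CPM. Tdo2 was at 1418 ± 259 CPM after AS-703026, 2185 ± 142 CPM after enzastaurin and 2241 ± 264 CPM after GDC-0941 (SD, n = 4). For Cps1 the closest was Ppa2, a mitochondrial pyrophosphatase, at 0.941. The member most like Otc was Gls2, at 0.493, and the member most like Cps1 was Arg1, at 0.491. For the other 7 members the closest gene had a correlation between 0.849, Nosip with Gls2, and 0.898, Gosr2 with Slc25a15. These correlations describe libraries that share their 3 compounds, their depths and their scaling.

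Of the markers of liver zones, periportal genes passed by edgeR and pericentral genes did not. Of 11 tested periportal genes, Ctsc was higher and Etnppl lower after AS-703026 against enzastaurin, with a list median of -0.0934. Against GDC-0941 1 was higher and 2 lower. Of all genes, 2.96% passed in the first of these contrasts and 3.22% in the second. With each library left out in turn, Ctsc and Etnppl passed in 12 of 12 fits in both contrasts. Of 12 tested pericentral genes 0 passed in any of the 3 comparisons by edgeR, with medians of -0.165, -0.283 and -0.132. At an unadjusted p under 0.05 there were 2, 4 and 0 for AS-703026 against enzastaurin, AS-703026 against GDC-0941 and enzastaurin against GDC-0941, with 1, 3 and 0 adjusted by DESeq2 and 0, 2 and 0 by voom. Over all 9490 genes the unadjusted counts by edgeR were 1538, 1527 and 762.

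In kidney, the members that could be tested were Cps1, Ass1, Asl, Slc25a15 and Glul, and 0 of the 5 passed against control for any compound by edgeR, with 1, Glul after AZD8055, at an unadjusted p under 0.05. The share of the 11719 genes tested that passed was 2.51% for any difference, 0.922% for AS-703026, 0.0427% for ascorbyl-palmitate, 5.46% for AZD8055, 0% for enzastaurin (915 at an unadjusted p under 0.05), 0.137% for GDC-0941 and 0.0427% for KU0063794. Without AZD8055 replicate 4, the 640 genes that passed after AZD8055 became 25 and the 108 after AS-703026 became 339. The 108 became 0 without AS-703026 replicate 4, without control replicate 4 or without control replicate 5. By DESeq2 Glul passed after AZD8055 (adjusted p = 0.0432), and by limma voom with sample weights Ass1 passed after KU0063794 (adjusted p = 0.0419).

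Ass1 and Asl, the enzymes that make arginine from citrulline in the tubule, both had their highest group mean after KU0063794 and their lowest after AS-703026, with all neighbouring groups overlapping. Ass1 ran from 620 to 1143 CPM (median 760) in the 6 controls and was at 1421, 1310, 1152 and 1101 CPM after KU0063794 and at 1042, 997, 1315 and 1294 CPM after enzastaurin. The KU0063794 libraries lay at or above the upper end of the controls, with replicate 4 inside their range. The log2 differences from control were 0.57 ± 0.29 for KU0063794 and 0.47 ± 0.29 for enzastaurin (edgeR, adjusted p = 0.524 and 0.704). In the other groups its means were 729 ± 249 CPM after AS-703026, 826 ± 126 CPM after ascorbyl-palmitate and 852 ± 233 CPM after GDC-0941 (SD, n = 4), beside 837 ± 240 CPM in control (SD, n = 6). After AZD8055, Ass1 was at 1250, 1138 and 1199 CPM in replicates 1 to 3 and at 257 CPM in replicate 4, the lowest of the 30 libraries. Asl had a mean of 207 ± 47.5 CPM (SD, n = 6) in control and 260 ± 33.6 CPM (SD, n = 4) after KU0063794, and was at 65.3 CPM in AZD8055 replicate 4. Its other group means lay between 184 ± 45.6 CPM after AS-703026 and 225 ± 43.6 CPM after enzastaurin. Over the 30 libraries the 2 genes had a correlation of 0.887, and of 0.839 without the 2 libraries that held liver transcripts. The genes closest to them were Gpx3, a plasma glutathione peroxidase made in the tubule, at 0.928 with Ass1, and Slc6a19, an amino acid transporter of the tubule, at 0.929 with Asl, among 5819 genes, and without those libraries at 0.903 and 0.873. The sum of 9 proximal tubule markers ran from 3896 to 14305 CPM after AZD8055, 10749 to 13900 CPM in control and 12623 to 16552 CPM after KU0063794, and none of them was at 0 in kidney. The part of tubule content in these levels was not tested.

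Slc25a15, the ornithine carrier, was between 267 and 368 CPM in control (median 320) and at 318, 202, 240 and 158 CPM after AS-703026, with 3 of the 4 below all controls. The log2 difference was -0.45 ± 0.22 (edgeR, adjusted p = 0.332) and did not pass. The means of the other treated groups lay between 257 ± 46.5 CPM after ascorbyl-palmitate and 342 ± 51.6 CPM after KU0063794 (SD, n = 4). In these kidneys the sum of 6 inner medulla genes was 360 to 3846 CPM, against 273 to 319 CPM in control, and 2 of its 4 tested genes passed as higher, Cryab and Aqp4. Without AS-703026 replicate 4 neither passed, with a log2 change of 1.92 in place of 3.92 for Cryab (edgeR, adjusted p = 0.224) and 2.06 in place of 3.58 for Aqp4 (edgeR, adjusted p = 0.352). Cryab was also lost without control replicates 4 and 5, and Aqp4 without control replicates 1, 3, 4 and 5. The sum of 6 genes of the thick ascending limb was 2588 to 3156 CPM after AS-703026 and 1479 to 2172 CPM in control, with no overlap, and 1 of the 6 passed, Cldn16, a call that was lost in 8 of the 10 fits without a library of these groups. The sum of the proximal tubule markers was 5821 to 13157 CPM after AS-703026, against 10749 to 13900 CPM in control. None of the genes of these lists was at 0 in kidney. The gene closest to Slc25a15 over the 30 libraries was Arl6ip1, with a correlation of 0.93, and of 0.872 without the 2 libraries that held liver transcripts. The part of these tubule segments in the level of the carrier was not tested.

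Glul was between 255 and 391 CPM in control (median 295) and at 400, 254, 262 and 1538 CPM after AZD8055. Replicate 4 stood apart from all other kidney libraries, the next of which, ascorbyl-palmitate replicate 1, was at 504 CPM. The other 5 treated groups had means between 287 ± 26.3 CPM after KU0063794 and 349 ± 113 CPM after ascorbyl-palmitate, beside 306 ± 53.2 CPM in control. The log2 difference of 1.01 ± 0.32 (edgeR, adjusted p = 0.0579) became -0.00369 (edgeR, adjusted p = 0.999) without replicate 4. In that library the sum of 9 adipocyte genes was 33780 CPM, against 82.8 to 155 CPM in control, and none of these genes was at 0 in kidney. All 6 tested adipocyte genes passed as higher after AZD8055. Over the 30 libraries the genes closest to Glul were Fasn, fatty acid synthase, and Fabp4, a fatty acid binding protein of fat cells, with correlations of 0.903 and 0.884. Without AZD8055 replicate 4 these were 0.598 and 0.488, so they rest on that library.

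Around the cycle in kidney, genes passed after AZD8055 and AS-703026. After AZD8055 these were Fh1, fumarase, and Gpt, alanine aminotransferase, of 12 tested genes of nitrogen entry and carriers, Slc1a5, a glutamine transporter, of 11 transporters, and Cebpa and Cebpb, transcription factors of liver and fat, of 10 regulators, all higher. Their log2 changes of 0.68, 1.44, 3.93, 3.83 and 2.27 became 0.34, 0.72, 0.098, 0.53 and 0.063 without replicate 4, and none of them or of the 6 adipocyte genes then passed (edgeR, adjusted p of 0.209 or higher). After AS-703026, 1 of 13 genes of arginine and ornithine use passed, Odc1, which makes polyamines from ornithine and fell by 1.63 ± 0.40 (edgeR, adjusted p = 0.0451). That call was lost in 7 of 10 fits without 1 AS-703026 or control library, those without AS-703026 replicates 2, 3 and 4 and control replicates 3, 4, 5 and 6, with edgeR's adjusted p up to 0.246 and a log2 change of -1.93 to -1.44. Of 8 users of glutamine 0 passed against control for any compound by edgeR, DESeq2 or voom, with 1, after ascorbyl-palmitate, at an unadjusted p under 0.05. Of 12 genes of amino acid breakdown 0 passed by edgeR, with 1 to 4 at an unadjusted p under 0.05 for a compound and at most 1 by DESeq2 or voom. Over all 11719 genes the unadjusted counts by edgeR ran from 915 after enzastaurin to 2340 after AZD8055.

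**Figure D2:**
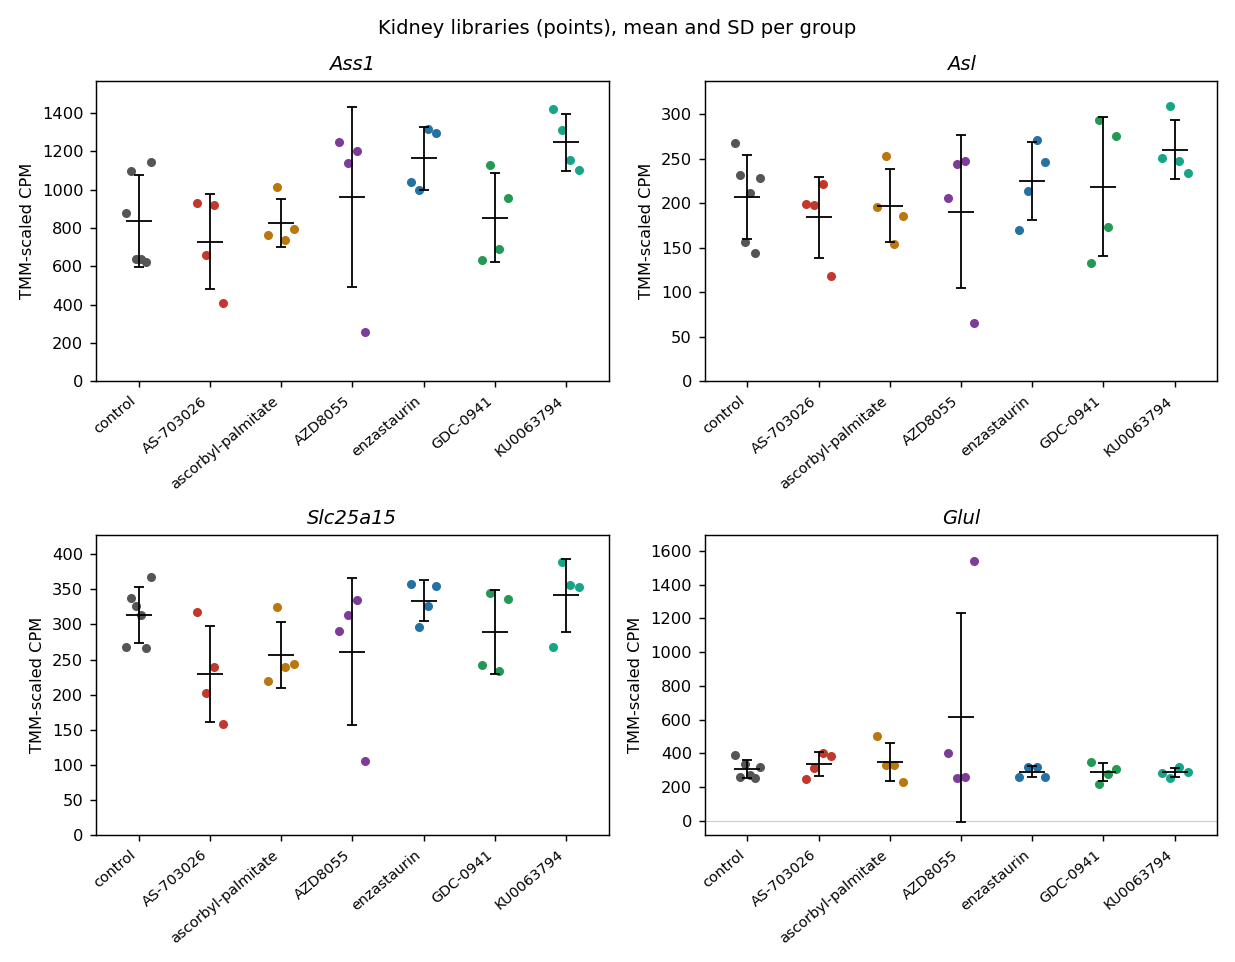
TMM-scaled CPM (y axes from 0, or just below it for Glul) of Ass1, Asl, Slc25a15 and Glul in kidney by group, with 1 point per library and the mean and SD (n = 6 in control, n = 4 otherwise). AZD8055 replicate 4 is the lowest point for Ass1 (257 CPM) and Asl (65.3 CPM) and the highest for Glul (1538 CPM).

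Cps1, Otc and Arg1, the members that mark hepatocytes, were at or near 0 in most kidneys, with medians of 0.658, 0.155 and 0.306 CPM over the 30 libraries. In enzastaurin replicate 1 they were at 60.5, 53.7 and 28.1 CPM, and in AZD8055 replicate 4 at 18.5, 8.74 and 14.4 CPM. Alb was at 630 and 236 CPM in these libraries and at most 11.8 CPM in the others. On the scale of the 24 libraries fitted together for both tissues, enzastaurin replicate 1 held 2.23% of the mean liver level of Cps1, 1.8% of that of Otc, 1.28% of that of Arg1 and 1.89% of that of Alb. Among 4 liver transcripts measured beside them the share ran from 0.484% for Apoa2 to 1.89% for Alb. For Cps1 the log2 difference of enzastaurin from control was 2.78 (edgeR, adjusted p = 0.67), and without replicate 1 it was -3.71 (edgeR, adjusted p = 0.716).

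Cps1 was also counted in kidney libraries with little Alb. In the 11 libraries with a satellite-like share of 5% or more it was between 2.44 and 16.5 CPM (median 5.89), and in the 17 with less, without the 2 libraries above, it was between 0 and 2.2 CPM (median 0). Alb was between 0.427 and 11.8 CPM (median 4.75) in the first set and between 0 and 6.58 CPM (median 3.94) in the second. Otc had medians of 0.639 and 0 CPM in these sets. The sets were formed after the values were seen, so no test is given. When the fit took in the satellite-like share, Cps1 passed the edgeR test for any difference between kidney groups (adjusted p = 0.0181, against 0.645 without it). That fit held enzastaurin replicate 1 and AZD8055 replicate 4, with the highest Cps1 levels in kidney (60.5 and 18.5 CPM). It was not repeated without them, so whether the call rests on them was not tested. What links the counts of Cps1 to that share was not tested.

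**Figure D3:**
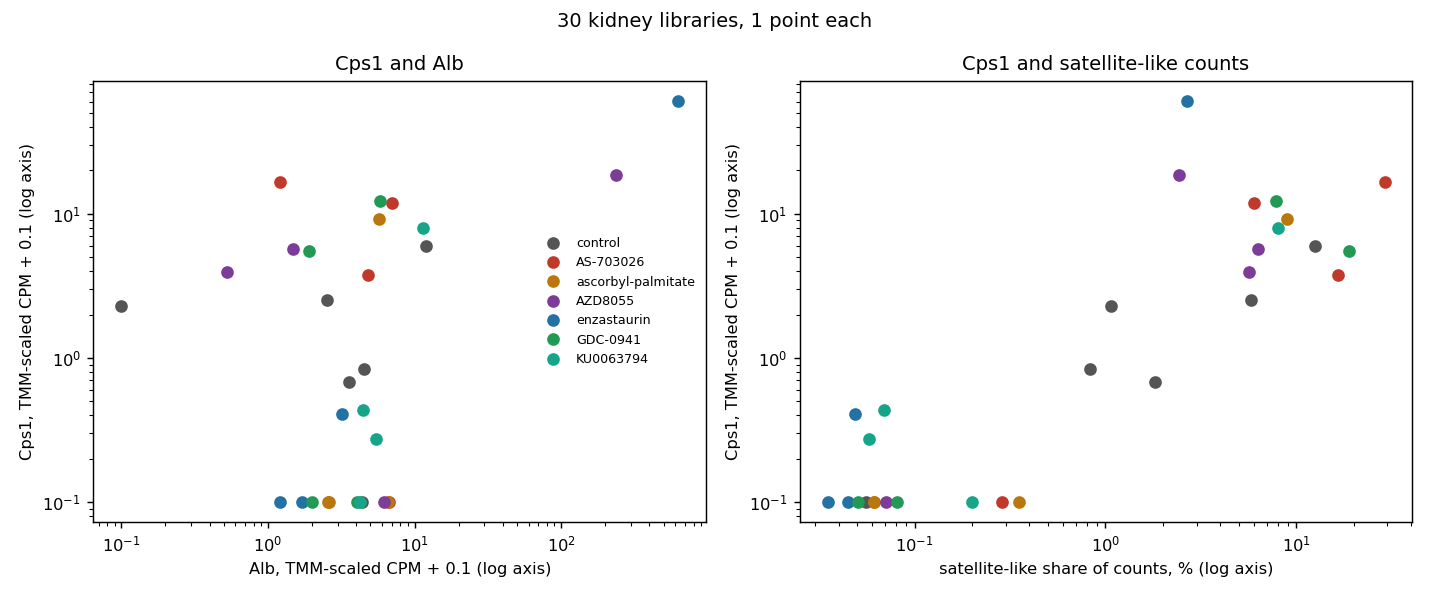
Cps1 in the 30 kidney libraries (y axes, TMM-scaled CPM + 0.1, log scale) against Alb (left, same unit, log scale) and against the share of satellite-like counts (right, percent, log scale), 1 point per library and 1 colour per group. On the left enzastaurin replicate 1 and AZD8055 replicate 4 lie apart at the upper right, and on the right the libraries at 5% or more all have Cps1 at 2.44 CPM or above.

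Between the tissues, the comparison took the 12 liver and 12 kidney libraries of AS-703026, enzastaurin and GDC-0941. The labels do not say whether liver and kidney came from the same mice, and the libraries were treated as independent. All 9 tested members were higher in liver by edgeR. Otc, Arg1, Nags and Gls2 passed the filter on low counts through liver, where they are high. Arg2, which had more counts in kidney, was removed by that filter. Of the 12262 genes tested 77.4% passed, 38.2% as higher in liver and 39.2% as higher in kidney. For all 9 members every liver library lay above every kidney library, but the share of all genes that separate this way is not given here. The members fell into those that were nearly missing from kidney and those counted well in both tissues, as the plot of changes between tissues shows.

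Nearly missing from kidney were Cps1, Otc, Arg1, Nags and Gls2. In liver they had 56398, 61282, 45226, 2405 and 1519 counts, and in the 12 kidney libraries 161, 79, 47, 3 and 3. The liver to kidney ratio was 516 for Cps1 (95% counting interval 442 to 606), 1143 for Otc (917 to 1444) and 1418 for Arg1 (1066 to 1931). Without the kidney library of enzastaurin replicate 1 it was 888, 5425 and 4575, so these ratios rest on that library. For Nags it was 1182 (404 to 5734) and for Gls2 746 (255 to 3623), each resting on 3 kidney counts. Without that library it was 3406 for Nags (611 to 134595), on 1 kidney count, and 1076 for Gls2 (297 to 8890), on 2. These intervals cover counting error only. Fitted log2 changes ran from 8.70 ± 0.72 for Cps1 to 10.84 ± 0.70 for Otc. Without that library they were 10.8 for Cps1, 12.8 for Otc, 12.1 for Arg1, 10.5 for Nags and 9.5 for Gls2, and all 5 passed (edgeR).

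Counted well in both were Ass1, Asl, Slc25a15 and Glul. Ass1 had a mean of 1320 ± 167 CPM in liver and 713 ± 210 CPM in kidney (SD, n = 12 each), a log2 change of 0.91 ± 0.13 (edgeR, adjusted p = 7.62e-07). Asl was between 319 and 534 CPM in liver and between 93 and 229 CPM in kidney, Slc25a15 between 382 and 577 and between 125 and 275 CPM, and Glul between 483 and 943 and between 171 and 315 CPM. Their changes were 1.32 ± 0.13, 1.17 ± 0.10 and 1.55 ± 0.12 (edgeR, adjusted p = 1.92e-09, 1.34e-10 and 6.56e-12). These sizes depend on the scaling. By library totals, a scaling tried after the data were seen, the median log2 change of all genes moved from -0.0477 to -0.72, and genes higher in liver were 26.3% of those that passed in place of 49.4%. On that scale Ass1 differed by 0.24 (edgeR, adjusted p = 0.121), Asl by 0.645, Slc25a15 by 0.50 and Glul by 0.89, and the last 3 passed. Ass1 was then at 1046 ± 134 CPM of the library total in liver and 901 ± 298 in kidney. RLE scaling gave a median of -0.162 for all genes.

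**Figure D4:**
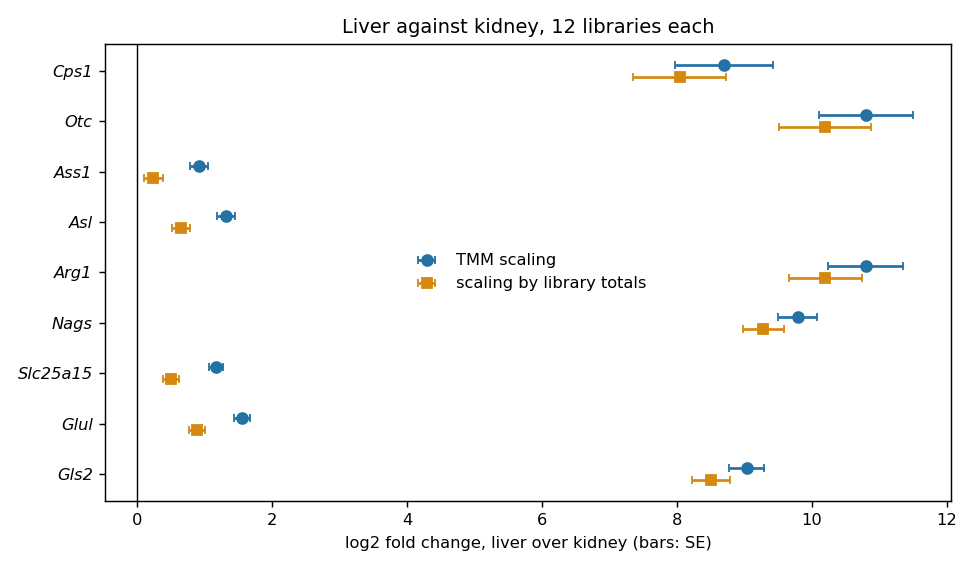
Log2 fold change of liver over kidney (x axis, 12 libraries per tissue, bars are SE) of the 9 tested members under TMM scaling (circles) and under scaling by library totals (squares). Ass1, Asl, Slc25a15 and Glul lie between 0.24 and 1.55 under the 2 scalings, and the other 5 lie at 8.04 or above.

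Arg2 (ENSMUSG00000021125, chromosome 12, 79130777 to 79156301, plus strand), the mitochondrial arginase, went the other way. It had 132 counts in all 42 libraries and was removed by the filter on low counts. In kidney it had 118 counts and was above 0 in 22 of 30 libraries, at most 5.75 CPM, in GDC-0941 replicate 3. Over the 12 libraries of each tissue it had 69 counts in kidney and 14 in liver, a kidney to liver ratio of 3.34 (95% counting interval 1.86 to 6.43). That interval covers counting error only and not the spread between libraries. Of the 69 counts, 16 were in AS-703026 replicate 3. In kidney Arg2 had a count in 2 of 4 AS-703026, 2 of 4 enzastaurin and 4 of 4 GDC-0941 libraries. In a fit without the filter its log2 change of liver over kidney was -1.81 ± 0.57 (edgeR, adjusted p = 0.0047). Arg2 shares exon bases with Vti1b on the other strand, which had 2426 counts, so that some of its few counts may belong there.

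In the genes around the cycle, all 13 tested genes of nitrogen entry and carriers passed between the tissues, 11 as higher in liver, led by Got2, a mitochondrial aspartate aminotransferase (log2 change 3.32 ± 0.10). Of 16 genes of amino acid breakdown, a list of the fasted liver, 15 were higher in liver and 0 in kidney. Over all genes it was 38.2% and 39.2%. In the kidney fit 12 genes of that list and 12 of nitrogen entry and carriers were tested. Some therefore entered this comparison through liver, where they are high. Of 14 genes of arginine and ornithine use 5 were higher in liver and 8 in kidney, and of 11 transporters 5 and 6. In the liver fit 7 transporters were tested, so some of the 11 entered through kidney. Gatm, which uses arginine, was at 793 ± 158 CPM in control kidney (SD, n = 6, kidney scale) and at 11.2 to 17.5 CPM in the means of the liver groups (liver scale).

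For the 3 compounds given in both tissues, 0 of the 9 members passed edgeR's test of a response that differs between liver and kidney, where 0.163% of genes passed. Otc, Arg1, Nags and Gls2 entered this fit through their liver counts, with 79, 47, 3 and 3 counts in kidney. A response in kidney could hardly be measured for them, so the test cannot decide the question there. Otc had the lowest unadjusted p (0.0285, adjusted p = 0.438), and 0 passed by DESeq2 or limma voom. Without the filter on low counts Otc and Arg1 passed (edgeR, adjusted p = 6.22e-11 and 0.000114). Their kidney counts come mostly from enzastaurin replicate 1, with 63 of the 79 of Otc and 33 of the 47 of Arg1.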

How the data were processed

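RNA of 30 kidney and 12 liver samples was counted by CEL-seq. The values used were the raw counts per gene as deposited by the authors, in a table of 43629 Ensembl genes. Per the submitters' processing notes, the tools included STAR 2.5.2b, featureCounts 1.5, Trimmomatic 0.32 and bcl2fastq 1.8.4, with mm10 as the genome. Strand setting, annotation release and any use of molecular identifiers are, in the sources used here, not given. Identifiers were matched to GENCODE M21 (GRCm38) for 42462 genes, and 0 columns were left unused.

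Libraries were grouped by tissue and compound. Counts were scaled by TMM, filtered by filterByExpr and tested with the quasi-likelihood fit of edgeR 4.0.16 under R 4.3.3, in 1 fit each for liver (9490 genes), kidney (11719) and the 24 libraries of AS-703026, enzastaurin and GDC-0941 in both tissues (12262). Benjamini-Hochberg adjustment ran over all genes of a fit, with a threshold of 0.05. CPM is on the scale of the fit it is given with, and 3′ counts are not compared between genes. All 10 members were described in every comparison. Of each other list, up to 2 genes that passed, those with the smallest adjusted p, were named for a comparison, and the genes of highest correlation with a member in a tissue, up to 2 each. In liver, Hnf4a, Cebpa, Glud1, Got1 and Slc25a13 and the levels of Gatm and Alb are given outside that rule. The members, lists, rules and alternatives were chosen with earlier results of these data known.

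Alternatives were DESeq2 1.42.0, RLE scaling, no filter, robust estimation, limma 3.58.1 voom with sample weights, the log2 share of counts in 13 satellite-like gene models as a term, the replicate number as a block, only the groups compared, leaving out each library, and leaving out the 2 kidney libraries with liver transcripts. Scaling by library totals, the lists in kidney without AZD8055 replicate 4, the lists by DESeq2 and voom, the named genes of the lists with libraries left out, and kidney correlations without the 2 libraries, were added after the data were seen. No 2 libraries of a group were closer than a chi-square of 3.67 per gene, so each counted as a sample. The fits were tested on simulated data in which all genes had the same set spread between libraries. Of 2-fold changes, 62.9% were recovered for liver AS-703026 against enzastaurin, 77.9% for kidney AZD8055 against control and 98.9% for liver against kidney. Of 4-fold changes it was 99%, 98.9% and 100%. That spread was not taken from the fits, so the shares need not hold for these data. Changes under 2-fold were not simulated.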

Additional observations from a re-analysis of the deposited data

Results flagged for a closer look

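Of 73 groups of 4 or 6 libraries with a mean of at least 1 CPM, 12 had a library far from the others of its group by Dixon's criterion, which chance gives in about 1 in 20 groups. In liver these were enzastaurin replicate 1 for Otc, at 2278 CPM, and for Arg1, at 1550 CPM. In kidney, enzastaurin replicate 1 stood apart for Cps1 at 60.5 CPM, Otc at 53.7 CPM and Arg1 at 28.1 CPM. AZD8055 replicate 4 stood apart for Otc at 8.74 CPM, Arg1 at 14.4 CPM, Glul at 1538 CPM and Ass1, where it was low, at 257 CPM. Cps1 was high at 9.06 CPM in ascorbyl-palmitate replicate 4 and at 7.93 CPM in KU0063794 replicate 1, which held 8.93% and 8.02% of satellite-like counts. Arg2 was high at 5.75 CPM in GDC-0941 replicate 3. Among the groups examined, the control group of kidney, Slc25a15 and Asl in both tissues, and Nags and Gls2 in liver had no such library. Nags and Gls2 in kidney had group means below 1 CPM and were not examined.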

How the results depend on the processing

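The 1 member called in liver for any difference, Otc, became 0 with the share of satellite-like counts as covariate and 0 with the replicate block, and the count ran from 0 to 1 when a library was left out. For AS-703026 against enzastaurin it became 0 with that covariate, 0 with the replicate block (log2 change -0.53, adjusted p = 0.0839 by edgeR), 0 in a fit of only these groups (adjusted p = 0.103) and 0 with library totals (adjusted p = 0.0537), and ran from 0 to 1 over the left-out libraries. For AS-703026 against GDC-0941 it became 0 with the covariate alone. In kidney the 0 members called became 3 for any difference without the filter (Glul, Otc and Arg1) and 1 with the covariate (Cps1). Those fits were not repeated with a library left out. After enzastaurin, replicate 1 held 63 of the 64 counts of Otc, 33 of the 36 of Arg1 and 71 of the 72 of Cps1. Glul was highest in AZD8055 replicate 4. After AZD8055 the number of members called became 1 with DESeq2 and 1 without the filter (Glul in both) and ran from 0 to 1 over the left-out libraries. It became 1 after enzastaurin without the filter (Otc) and 1 after KU0063794 with voom (Ass1). For compound by tissue it became 2 without the filter. For liver against kidney it stayed between 7 and 10, with 7 by DESeq2, which gave no adjusted p for Cps1 and Otc. Glul after AZD8055 went from 1.01 to -0.00369 without AZD8055 replicate 4 and to -0.00329 without both kidney libraries that hold liver transcripts, with up to 1.26 over the left-out libraries. Cps1 after enzastaurin in kidney went from 2.78 to -1.69 with voom, -3.71 without enzastaurin replicate 1 (up to 3.7 over the left-out libraries) and -3.72 without both libraries. Over all genes, the 108 called in kidney after AS-703026 became 270 with DESeq2, 296 without the filter, 188 with voom, 20 with the covariate, 0 with the replicate block and 332 without both libraries that hold liver transcripts, and ran from 0 to 339 over the left-out libraries. The 640 after AZD8055 became 235 with voom, 27 with the block, 0 in a fit of only these groups and 23 without both libraries. In liver, the 281 against enzastaurin became 673 without the filter, 1 with the covariate and 186 in a fit of only these groups, and ran from 124 to 359. The 306 against GDC-0941 became 769 and 22 by the first 2 of these, and ran from 148 to 456. Where no value above shows it, the cause was not tested.

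The replicate numbers showed no clear pairing of the samples. Libraries of 1 number deviated from their group means with a median correlation of -0.0593 in liver and -0.00536 in kidney. Of these pairs, 2 of 12 and 18 of 84 were over 0.1. Across the tissues, libraries of 1 compound and number had a median of 0.0193, beside -0.0191 for other numbers, with 3 of 12 over 0.1. Genes with few counts limit what can be seen: Arg2 in both tissues, and Otc, Arg1, Nags and Gls2 in kidney.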
